A study of Mus musculus with 6 samples.

Results

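Genes of cell proliferation and mitosis were examined in kidney RNA of diabetic mice that had or had not received atorvastatin. The members were 42 genes chosen by symbol for their place in the cell cycle, and all 42 were found among the 17684 genes of the deposited table. Of these, 15 act in DNA replication (origin licensing, the fork and the making of deoxynucleotides), 4 in the passage from G1 to S phase and 23 in G2 and mitosis. Ccna2 and Top2a, which also act in S phase, were counted with the mitotic members. A dividing cell licenses its replication origins with the MCM helicase ring, copies its DNA in S phase, and separates the copies in mitosis under Cdk1 and cyclins A and B. The replication genes are switched on late in G1, largely by E2F factors, and many mitotic genes later, in G2, through the MuvB complex with B-Myb and Foxm1. Most cells of the adult kidney are out of the cycle, and tubule cells can re-enter it after injury.

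The study asked how long-term atorvastatin treatment affects the diabetic kidney, and RNA was sequenced from 3 kidneys of the Db group and 3 of the Db + Ato10 group. All 6 mice were db/db, lacking a working leptin receptor and therefore obese and diabetic, of the strain given as C57 BLKS/L, and 50 weeks old. The Db + Ato10 mice had received atorvastatin, an inhibitor of cholesterol synthesis, at 10 mg/kg per day of dosing for 40 weeks, and the Db mice saline over the same time. One label field describes all 6 mice as atorvastatin-treated, another separates saline from atorvastatin, and the groups follow the latter. By the methods only male mice were used, and gavage was done on a run of days in each week rather than daily. The kidneys came from animals alive at 50 weeks, and deaths before that age were not analysed here.

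Total counts were 13134930, 11381678 and 12426051 in Db replicates 1 to 3, and 14578023, 14667909 and 13133241 in Db + Ato10 replicates 1 to 3. A gene with 3 counts stood at 0.198 to 0.260 CPM (counts scaled to library size, with TMM factors), and lower levels were not detectable at this depth, counting error alone being considered. The kidney label was checked against 9 tubule and 5 podocyte markers. All 14 were detected in each library, the tubule markers at mean levels of 38.9 FPKM (fragments scaled to transcript length and library size) or more. A pair of libraries stood apart from their groups. Db replicate 1 held 2 counts in all over 4 genes of the Y chromosome, against 1419 to 2116 in the rest of the libraries, although the mice were described as male. Db + Ato10 replicate 3 lay at -18.8 on the first principal component (71.1% of the variance), near the Db libraries at -55.4, -26.9 and -52.0, while Db + Ato10 replicates 1 and 2 lay at 107 and 46.1. The main counts and medians over members are therefore given with and without them, as are printed fold changes of single genes that any 1 library moved by more than 1.5 times.

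Of the 42 members, 40 had at least 10 counts in at least 3 libraries and were tested, and Cdc6 and Bub1 did not. Tested members were mostly higher in the Db + Ato10 group, 37 with a positive and 3 with a negative fitted log2 fold change. The median was 1.11 over the 40 tested members and 1.15 over all 42 without the filter, beside -0.01 over the 13679 genes tested. Over tested members it was 1.18 with Db replicate 1 left out and 1.31 with Db + Ato10 replicate 3 left out. Omitting Db replicate 2 raised it to 1.34. The median fell to 0.87 when Db + Ato10 replicate 2 was omitted, to 0.94 when Db + Ato10 replicate 1 was, and to 0.98 when Db replicate 3 was. With limma on log2(FPKM + 1) it was 0.63. With the quasi-likelihood test of edgeR and Benjamini-Hochberg adjustment, 0 of 40 members passed a fold change of 1.5 and an adjusted p of 0.05, as did 0.0% of all genes. Adjusted p-values of members, from the same edgeR fit with Benjamini-Hochberg adjustment, ran from 0.239 to 0.975. At an unadjusted p under 0.05, edgeR counted 24 of 40 members (60.0%) as higher in Db + Ato10, beside 11.2% of all genes, and 0 members as lower, beside 5.71%. The higher count was 9 of 40 with Db replicate 3 left out (beside 5.23% of all genes) and 21 of 40 with Db replicate 1 left out (beside 5.16%). It was 33 of 39 with Db + Ato10 replicate 3 left out (beside 16.8%) and 14 of 40 with limma-voom (beside 6.62%). With either Db + Ato10 replicate 1 or 2 left out it was 17 of 39, beside 7.72% and 8.39% of all genes. DESeq2 called 10 members (25.0%) higher, beside 5.17% of all genes, and limma-voom called 0. Without Db + Ato10 replicate 3, edgeR called 17 of 39 members (43.6%) higher, beside 5.96% of 13517 genes, and 0 when Db replicate 1 was left out too.

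In 15 of 40 members (37.5%) every Db + Ato10 library lay above every Db library, beside 12.0% of all genes, and in 1 member every Db + Ato10 library lay below, beside 11.3%. With Db + Ato10 replicate 3 left out the count of members above was 34 of 39, beside 25.4% of all genes, and with Db replicate 1 left out it was 20 of 40, beside 16.2%. With fewer libraries such separation is more frequent by chance. One of the 15, Ccne1, reached the filter through the Db + Ato10 libraries alone. Without the filter 16 of all 42 members were separated in this way, beside 10.7% of 17672 genes. With 3 against 3 libraries an exact two-sided permutation test cannot give a p under 0.1. In bulk kidney RNA, fewer cells of a type and less RNA per cell cannot be told apart, and the same holds for more cells in the cycle and more RNA per cycling cell.

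Levels differed widely between members. Per transcript length, Ccnd1 was the most abundant, at a mean of 75.7 FPKM over the 6 libraries, followed by Pcna at 45.4 FPKM and Tyms at 10.9 FPKM. The lowest was Cenpf, a large kinetochore protein, at 0.205 FPKM, and 11 of the 42 members had means below 1 FPKM. The median over the 15 replication members was 3.95 FPKM, and over the 23 mitotic members 1.13 FPKM.

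Origin licensing was represented by 8 members, of which 7 were tested. All 7 were higher in each Db + Ato10 library than in any Db library (beside 12.0% of all genes), with fitted log2 fold changes from 0.47 to 1.65. Mcm6 (NCBI Gene 17219), a subunit of the 6-part MCM ring that unwinds DNA, had 17.2, 13.3 and 17.2 CPM in Db replicates 1 to 3 and 33.6, 29.0 and 23.9 CPM in Db + Ato10 replicates 1 to 3 (15.9 ± 2.27 and 28.8 ± 4.87 CPM, mean ± SD, n = 3). Its log2 fold change was 0.86 ± 0.19 (SE), with an adjusted p of 0.239 by edgeR (quasi-likelihood, Benjamini-Hochberg). All 3 treated kidneys lay above all 3 controls, and the lowest of the treated was Db + Ato10 replicate 3. Mcm3 (NCBI Gene 17215), another subunit of the ring, had 41, 45 and 57 counts in the Db libraries and 283, 163 and 91 in the Db + Ato10 libraries (3.92 ± 0.673 and 12.3 ± 5.84 CPM, mean ± SD, n = 3). Its log2 fold change of 1.65 ± 0.39 (SE, adjusted p = 0.239, edgeR quasi-likelihood, Benjamini-Hochberg) was the largest of the licensing members. The libraries kept the same pattern, with Db + Ato10 replicate 1 far above the rest. Mcm7 (NCBI Gene 17220), the most abundant subunit per transcript length, had 20.7, 17.4 and 16.0 CPM in Db and 28.6, 24.0 and 22.6 CPM in Db + Ato10 (18.1 ± 2.44 and 25.1 ± 3.16 CPM, mean ± SD, n = 3), a log2 fold change of 0.47 ± 0.17 (SE).

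The rest of the ring was also higher, by different amounts. Fitted log2 fold changes were 0.47 ± 0.15 for Mcm2, 0.72 ± 0.21 for Mcm4 and 1.06 ± 0.32 for Mcm5 (SE). The subunits form a ring with 1 copy of each, yet their RNA levels were unequal. Between the most and the least abundant of the 6 subunits the FPKM ratio was 7.75, 6.39 and 4.20 in the Db libraries and 3.26, 4.16 and 4.07 in the Db + Ato10 libraries. Mcm7 was the highest in all 6 libraries, and Mcm3 or Mcm5 the lowest. Cdt1, a loading factor for the ring, had 5.25, 5.46 and 5.98 CPM in Db and 12.2, 7.63 and 8.03 CPM in Db + Ato10, and here Db + Ato10 replicate 2 was the lowest treated library. Cdc6, the ATPase that works beside Cdt1, was too scarce for the test, with 6, 5 and 4 counts in the Db libraries and 47, 22 and 8 in the Db + Ato10 libraries. Its treated libraries also lay above the controls, by 2 counts in the closest pair. With DESeq2 and Benjamini-Hochberg adjustment, Mcm3 (adjusted p = 0.00629), Mcm4 (0.0442) and Mcm6 (0.00992) passed both thresholds.

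At the replication fork, 3 of 4 members were higher in every Db + Ato10 library than in any control, beside 12.0% of all genes. Uhrf1 (NCBI Gene 18140), which binds newly copied half-methylated DNA and recruits the methyltransferase Dnmt1, had 1.75, 1.91 and 1.78 CPM in Db and 9.68, 10.3 and 4.65 CPM in Db + Ato10 (1.81 ± 0.0846 and 8.22 ± 3.11 CPM, mean ± SD, n = 3). The log2 fold change was 2.18 ± 0.37 (SE), with an adjusted p of 0.239 by edgeR (quasi-likelihood, Benjamini-Hochberg). It was the largest fold change of the 40 tested members, and the unadjusted p was the smallest. The Db libraries were nearly equal, at 22 counts each, and even Db + Ato10 replicate 3, at 59 counts, stood well clear of them. Gins2, a subunit of the GINS complex that activates the helicase, had 1.51, 2.08 and 2.10 CPM in Db and 5.14, 6.55 and 4.49 CPM in Db + Ato10, a fold change of 2.84 (adjusted p = 0.239, edgeR quasi-likelihood, Benjamini-Hochberg). It is given in full for its close treated libraries, a choice made after its values were seen. Pcna (NCBI Gene 18538), the sliding clamp of the DNA polymerases, which also serves DNA repair, had 47.2, 42.7 and 42.6 CPM in Db and 57.8, 57.5 and 53.7 CPM in Db + Ato10 (44.2 ± 2.60 and 56.3 ± 2.25 CPM, mean ± SD, n = 3). The log2 fold change of Pcna was 0.35 ± 0.12 (SE, adjusted p = 0.239, edgeR quasi-likelihood, Benjamini-Hochberg), the smallest among members higher in every treated library. Cdc45, which travels with the MCM ring and GINS, had 3.02, 0.954 and 1.62 CPM in Db and 3.95, 3.11 and 1.97 CPM in Db + Ato10, and the groups overlapped through Db replicate 1. With DESeq2 and Benjamini-Hochberg adjustment, Uhrf1 (adjusted p = 0.000122) and Gins2 (0.00175) passed both thresholds.

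Deoxynucleotide synthesis had 3 members, and all 3 overlapped between the groups. Rrm2 (NCBI Gene 20135), the S-phase subunit of ribonucleotide reductase, had 6.60, 6.24 and 3.55 CPM in Db and 15.7, 11.2 and 4.33 CPM in Db + Ato10 (5.46 ± 1.66 and 10.4 ± 5.71 CPM, mean ± SD, n = 3). Db + Ato10 replicates 1 and 2 were above the controls, and Db + Ato10 replicate 3 was inside their range. The log2 fold change was 0.93 ± 0.50 (SE, adjusted p = 0.368, edgeR quasi-likelihood, Benjamini-Hochberg). Leaving out Db + Ato10 replicate 1 made it 0.52, and leaving out Db + Ato10 replicate 3 made it 1.30. Tyms (NCBI Gene 22171), thymidylate synthase, had 37.3, 42.8 and 44.1 CPM in Db and 46.2, 30.9 and 38.0 CPM in Db + Ato10 (41.4 ± 3.63 and 38.4 ± 7.66 CPM, mean ± SD, n = 3). Its fitted log2 fold change of -0.11 ± 0.18 (SE) was smaller than its error. Leaving out Db + Ato10 replicate 1 made it -0.26, and leaving out Db + Ato10 replicate 2 turned it to 0.04. With Db replicate 1 omitted it was -0.17, and with Db replicate 3 omitted -0.06. Rrm1, the large and long-lived subunit of the reductase, had 24.6, 18.9 and 21.4 CPM in Db and 25.6, 21.5 and 19.1 CPM in Db + Ato10, a log2 fold change of 0.03 ± 0.18 (SE). This was close to 0 and changed sign with the libraries, from -0.08 with Db + Ato10 replicate 1 omitted to 0.14 with Db replicate 1 omitted and 0.13 with Db + Ato10 replicate 3 omitted.

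The 4 members of the G1 to S passage went in different directions. E2f1 (NCBI Gene 13555), a transcription factor that activates replication genes, had 3.18, 1.82 and 2.34 CPM in Db and 9.42, 8.85 and 4.10 CPM in Db + Ato10 (2.45 ± 0.685 and 7.45 ± 2.92 CPM, mean ± SD, n = 3). The groups did not overlap, the log2 fold change was 1.60 ± 0.41 (SE, adjusted p = 0.239, edgeR quasi-likelihood, Benjamini-Hochberg), and DESeq2 with Benjamini-Hochberg adjustment called it (adjusted p = 0.0134). Ccne1 (NCBI Gene 12447), cyclin E1, the partner of Cdk2 at the start of S phase, had 7, 6 and 9 counts in the Db libraries and 38, 30 and 14 in the Db + Ato10 libraries. Its log2 fold change was 1.63 ± 0.43 (SE, adjusted p = 0.239, edgeR quasi-likelihood, Benjamini-Hochberg), and it was tested only because of the treated libraries. Ccne2, cyclin E2, showed no such separation, with 23, 20 and 4 counts in Db and 23, 18 and 13 in Db + Ato10. Ccnd1 (NCBI Gene 12443), cyclin D1, which links growth signals to Cdk4 and Cdk6 and is expressed in tubule cells outside the cycle, went the other way. It had 393, 309 and 296 CPM in Db and 258, 143 and 266 CPM in Db + Ato10 (333 ± 52.9 and 222 ± 68.5 CPM, mean ± SD, n = 3). All treated libraries lay below all controls, Db + Ato10 replicate 2 the farthest, with a log2 fold change of -0.58 ± 0.28 (SE, adjusted p = 0.330, edgeR quasi-likelihood, Benjamini-Hochberg). Without Db + Ato10 replicate 2 it was -0.33.

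All 7 members that drive G2 and mitotic entry had positive fitted log2 fold changes, from 0.66 to 1.97, and 1 of the 7, Ccna2, was separated between the groups, near the 12.0% of all genes. Ccna2 (NCBI Gene 12428), cyclin A2, which acts in S phase and in mitotic entry, had 3.34, 3.55 and 2.67 CPM in Db and 11.8, 12.3 and 4.57 CPM in Db + Ato10 (3.19 ± 0.463 and 9.55 ± 4.32 CPM, mean ± SD, n = 3). Ccna2 had a log2 fold change of 1.58 ± 0.42 (SE, adjusted p = 0.239, edgeR quasi-likelihood, Benjamini-Hochberg), and DESeq2 with Benjamini-Hochberg adjustment called it (adjusted p = 0.0154). Db + Ato10 replicates 1 and 2 were about equal, and Db + Ato10 replicate 3 lay above the controls but nearer to them. Cdk1 (NCBI Gene 12534), the kinase that starts mitosis, had 1.43, 1.99 and 0.969 CPM in Db and 8.04, 7.63 and 1.57 CPM in Db + Ato10 (1.46 ± 0.513 and 5.75 ± 3.62 CPM, mean ± SD, n = 3). The log2 fold change was 1.97 ± 0.65 (SE, adjusted p = 0.239, edgeR quasi-likelihood, Benjamini-Hochberg), and Db + Ato10 replicate 3 lay between the controls. Ccnb1, cyclin B1, the main partner of Cdk1 in mitosis, had 1.27, 1.39 and 0.808 CPM in Db and 3.16, 4.39 and 0.473 CPM in Db + Ato10. Here Db + Ato10 replicate 3, with 6 counts, was the lowest of all 6 libraries. Among the others, log2 fold changes were 1.80 ± 0.70 for cyclin B2 (Ccnb2), 1.73 ± 0.55 for Plk1, a kinase of centrosome maturation and mitotic exit, and 0.66 ± 0.46 for Aurka, the spindle-pole kinase (SE). Aurka was at 0.36 when Db + Ato10 replicate 1 was omitted and at 0.42 when Db replicate 3 was. Foxm1, a transcription factor of many mitotic genes, had 3.18, 4.77 and 2.34 CPM in Db and 7.25, 8.91 and 3.23 CPM in Db + Ato10.

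Of 6 spindle checkpoint, passenger complex and anaphase genes 5 were tested, with fitted log2 fold changes from 0.80 to 2.08. At an unadjusted edgeR p under 0.05, 4 were higher, beside 11.2% of all genes. Only 1 of the 5, Bub1b, was separated between the groups, beside 12.0% of all genes. Aurkb (NCBI Gene 20877), the kinase of the chromosomal passenger complex, had 0.874, 0.607 and 0.565 CPM in Db and 4.54, 3.38 and 0.788 CPM in Db + Ato10 (0.682 ± 0.168 and 2.90 ± 1.92 CPM, mean ± SD, n = 3), with a log2 fold change of 2.08 ± 0.66 (SE, adjusted p = 0.239, edgeR quasi-likelihood, Benjamini-Hochberg). Its counts were low, 11, 7 and 7 in Db and 69, 50 and 10 in Db + Ato10, with 10 or more in only 1 Db library. Birc5 (NCBI Gene 11799), or survivin, which targets that complex to centromeres, had 0.954, 1.73 and 1.13 CPM in Db and 7.25, 6.14 and 1.57 CPM in Db + Ato10 (1.27 ± 0.409 and 4.99 ± 3.01 CPM, mean ± SD, n = 3). Birc5 had a log2 fold change of 1.97 ± 0.60 (SE, adjusted p = 0.239, edgeR quasi-likelihood, Benjamini-Hochberg), and DESeq2 with Benjamini-Hochberg adjustment called it (adjusted p = 0.0419). In both genes Db + Ato10 replicates 1 and 2 were at several times the control level, and Db + Ato10 replicate 3 was inside the control range. Ube2c (NCBI Gene 68612), the ubiquitin-conjugating enzyme of the anaphase-promoting complex and the most abundant mitotic member, per transcript length, had 4.05, 3.38 and 4.36 CPM in Db and 9.42, 7.70 and 3.47 CPM in Db + Ato10 (3.93 ± 0.502 and 6.86 ± 3.06 CPM, mean ± SD, n = 3). Db + Ato10 replicate 3 was inside the control range in CPM and just below it in FPKM, and the log2 fold change was 0.80 ± 0.40 (SE, adjusted p = 0.343, edgeR quasi-likelihood, Benjamini-Hochberg). Without Db + Ato10 replicate 1 it was 0.52. Cdc20, which activates that complex at anaphase, had a log2 fold change of 1.00 ± 0.40, and the checkpoint kinase-like protein Bub1b one of 1.68 ± 0.55 (SE). Bub1b was separated between the groups by a narrow margin, 1.65 CPM in Db + Ato10 replicate 3 against 1.59 CPM in Db replicate 1, and its log2 fold change was 1.10 with Db + Ato10 replicate 1 omitted. Bub1, a checkpoint kinase that was too scarce for the test, had 7, 6 and 3 counts in Db and 31, 19 and 7 in Db + Ato10, and the groups touched at 7 counts.

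The 10 members of spindle and chromosome structure had log2 fold changes from 0.79 to 2.17. Top2a (NCBI Gene 21973), the topoisomerase that untangles sister chromatids, had 2.78, 2.25 and 1.13 CPM in Db and 12.8, 12.4 and 2.44 CPM in Db + Ato10 (2.06 ± 0.843 and 9.24 ± 5.89 CPM, mean ± SD, n = 3). The log2 fold change was 2.17 ± 0.68 (SE, adjusted p = 0.239, edgeR quasi-likelihood, Benjamini-Hochberg), and DESeq2 with Benjamini-Hochberg adjustment called it (adjusted p = 0.0302). Mki67, the Ki-67 protein that coats mitotic chromosomes and is widely used as a proliferation marker, had 3.81, 4.59 and 2.26 CPM in Db and 20.1, 17.9 and 4.02 CPM in Db + Ato10. Its log2 fold change was 1.98 ± 0.62 (SE), and DESeq2 with Benjamini-Hochberg adjustment called it too (adjusted p = 0.0306). It was named after its values were seen. In both genes Db + Ato10 replicate 3 lay within the control range and Db replicate 3 was the lowest library. Kif23 (NCBI Gene 71819), a kinesin of the central spindle and the most abundant of the 10, had 12.3, 6.24 and 3.31 CPM in Db and 17.3, 12.0 and 8.59 CPM in Db + Ato10 (7.29 ± 4.59 and 12.6 ± 4.40 CPM, mean ± SD, n = 3). Its controls were spread widely, and Db replicate 1 stood above both Db + Ato10 replicates 2 and 3. The log2 fold change of 0.79 ± 0.51 (SE) became 1.42 when Db replicate 1 was omitted, 0.45 when Db replicate 3 was, and 0.51 when Db + Ato10 replicate 1 was. Kif11, the motor that pushes spindle poles apart, was separated between the groups, with 1.51, 1.73 and 0.808 CPM in Db and 5.99, 4.32 and 1.97 CPM in Db + Ato10.

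Other spindle members gave intermediate values. Log2 fold changes (± SE) were 1.70 ± 0.68 for Tpx2, an activator of Aurka, 1.63 ± 0.69 for Prc1, which bundles midzone microtubules, and 1.20 ± 0.62 for Nusap1, which stabilizes spindle microtubules. They were 0.91 ± 0.46 for Kif20a, a kinesin of cytokinesis, 1.16 ± 0.64 for the kinetochore motor Cenpe and 0.85 ± 0.69 for Cenpf. Omitting Db + Ato10 replicate 2 brought Nusap1 to 0.67, Kif20a to 0.51 and Cenpe to 0.49. Cenpf was at 0.33 when Db + Ato10 replicate 1 was omitted, 1.32 when Db replicate 2 was, and 1.31 when Db + Ato10 replicate 3 was. In Cenpe and Cenpf, as in Ccnb1, Db + Ato10 replicate 3 lay below every control.

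**Figure D1:**
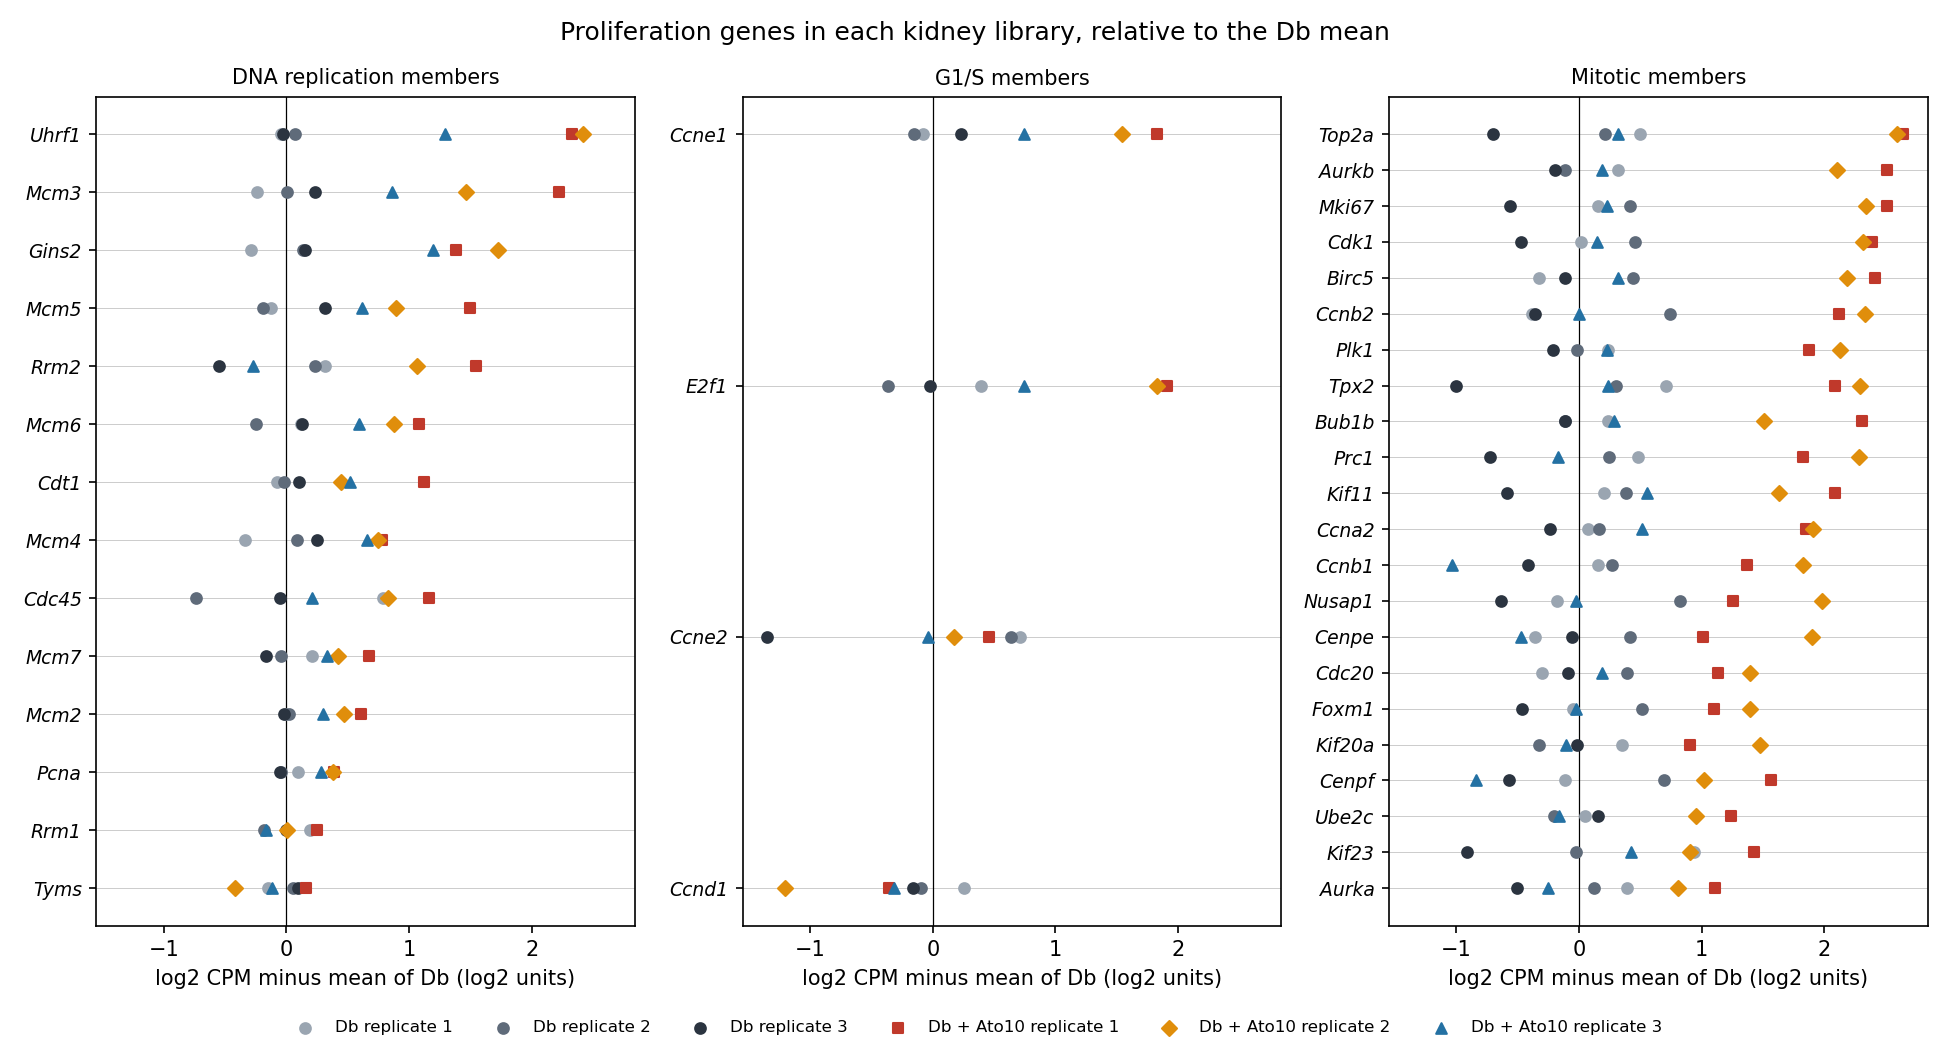
Each point is 1 library, and the horizontal axis gives its log2 CPM minus the mean of the 3 Db libraries for each of the 40 tested members, in panels for DNA replication, G1/S and mitotic members, ordered by fitted fold change. Db + Ato10 replicate 3 (triangles) lay above every Db library (circles) in 10 of 14 replication members and in 3 of 22 mitotic members, beside 23.5% of all genes.

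Set against each other library by library, the mitotic medians stood above the replication medians in Db + Ato10 replicates 1 and 2 and below them in Db + Ato10 replicate 3. For each library the median over members of log2 CPM minus the Db mean was taken. Over the 14 tested replication members this median was -0.02, -0.01 and 0.04 in Db replicates 1 to 3 and 1.10, 0.79 and 0.43 in Db + Ato10 replicates 1 to 3. The group means were 0.00 ± 0.04 and 0.77 ± 0.34 (SD, n = 3), and every treated library lay above every control. Over the 22 tested mitotic members the median was 0.15, 0.28 and -0.44 in Db and 1.84, 1.90 and 0.17 in Db + Ato10. The group means were 0.00 ± 0.39 and 1.30 ± 0.98 (SD, n = 3), and Db + Ato10 replicate 3 lay between Db replicates 1 and 2. Without the filter, the medians in Db + Ato10 were 1.07, 0.81 and 0.48 over all 15 replication members and 1.80, 1.88 and 0.19 over all 23 mitotic members. Mitotic medians were thus about level in Db + Ato10 replicates 1 and 2, while replication medians were higher in Db + Ato10 replicate 1.

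Members above every control were also counted. In Db + Ato10 replicate 1 this count was full for replication and mitotic members alike, so it could not set them apart there. In Db + Ato10 replicate 1, 38 of 40 members lay above every Db library (beside 38.6% of all genes), in Db + Ato10 replicate 2, 35 (beside 35.1%), and in Db + Ato10 replicate 3, 15 (beside 23.5%). By role, Db + Ato10 replicate 1 was above every control in 14 of 14 replication and 22 of 22 mitotic members, and Db + Ato10 replicate 2 in 12 and 21. Db + Ato10 replicate 3 was above in 10 replication members (71.4%) and in 3 mitotic members (13.6%), which were Ccna2, Bub1b and Kif11. It was below every control in 0 replication and 3 mitotic members, beside 24.0% of all genes, and within the control range in 4 and 16, beside 52.6%. In all 22 mitotic members it was the lowest of the 3 treated libraries, as in 12 of 14 replication members, beside 36.3% of all genes tested. Among the controls, Db replicate 3 was the lowest in 16 of 22 mitotic members and in 4 of 14 replication members, beside 30.3% of all genes.

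Mitotic minus replication medians within a library were 0.18, 0.29 and -0.49 in Db replicates 1 to 3 and 0.73, 1.12 and -0.26 in Db + Ato10 replicates 1 to 3. The groups overlapped, with means of -0.01 ± 0.42 and 0.53 ± 0.71 (SD, n = 3), and the difference of 0.54 between them was smaller than the SD of the treated group. Leaving out Db + Ato10 replicate 3 gave 0.93, and leaving out Db + Ato10 replicate 2 gave 0.24. The value was 0.26 when Db replicate 3 was omitted and 0.54 when Db replicate 1 was. On the scale of log2(FPKM + 1) it was 0.185. On the fitted log2 fold changes, the medians were 0.73 for replication and 1.59 for mitotic members, 0.86 apart. They were 0.47 apart when Db + Ato10 replicate 2 was omitted. With limma on log2(FPKM + 1) the medians were 0.57 and 0.68, 0.11 apart. They were 0.82 and 1.62 with Db replicate 1 omitted, and 0.88 and 1.93 with Db + Ato10 replicate 3 omitted. All treated libraries lay above all controls in 3 of 22 mitotic members (13.6%) and 10 of 14 replication members (71.4%), beside 12.0% of all genes. This depended on the libraries, with 21 of 22 and 12 of 14 when Db + Ato10 replicate 3 was omitted (beside 25.4% of all genes). The counts were 10 of 22 and 10 of 14 when Db replicate 2 was omitted (beside 20.2%). With Db replicate 1 omitted they were 7 of 22 and 11 of 14 (beside 16.2%). At an unadjusted p under 0.05 edgeR counted 12 of 22 mitotic and 10 of 14 replication members as higher, beside 11.2% of all genes. Leaving out Db replicate 3 brought these counts to 1 and 6 (beside 5.23% of all genes), and leaving out Db + Ato10 replicate 3 to 21 and 11 (beside 16.8%). Without Db replicate 1 they were 9 and 10 (beside 5.16%). With limma-voom on all 6 libraries they were 2 and 10 (beside 6.62%), so the mitotic count rested on the tool as well. The members that edgeR called without Db + Ato10 replicate 3 were 12 mitotic, 4 replication and 1 G1/S gene, the last being E2f1, beside 5.96% of all genes. No test of the difference between the roles was made, since the members were picked by hand.

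**Figure D2:**
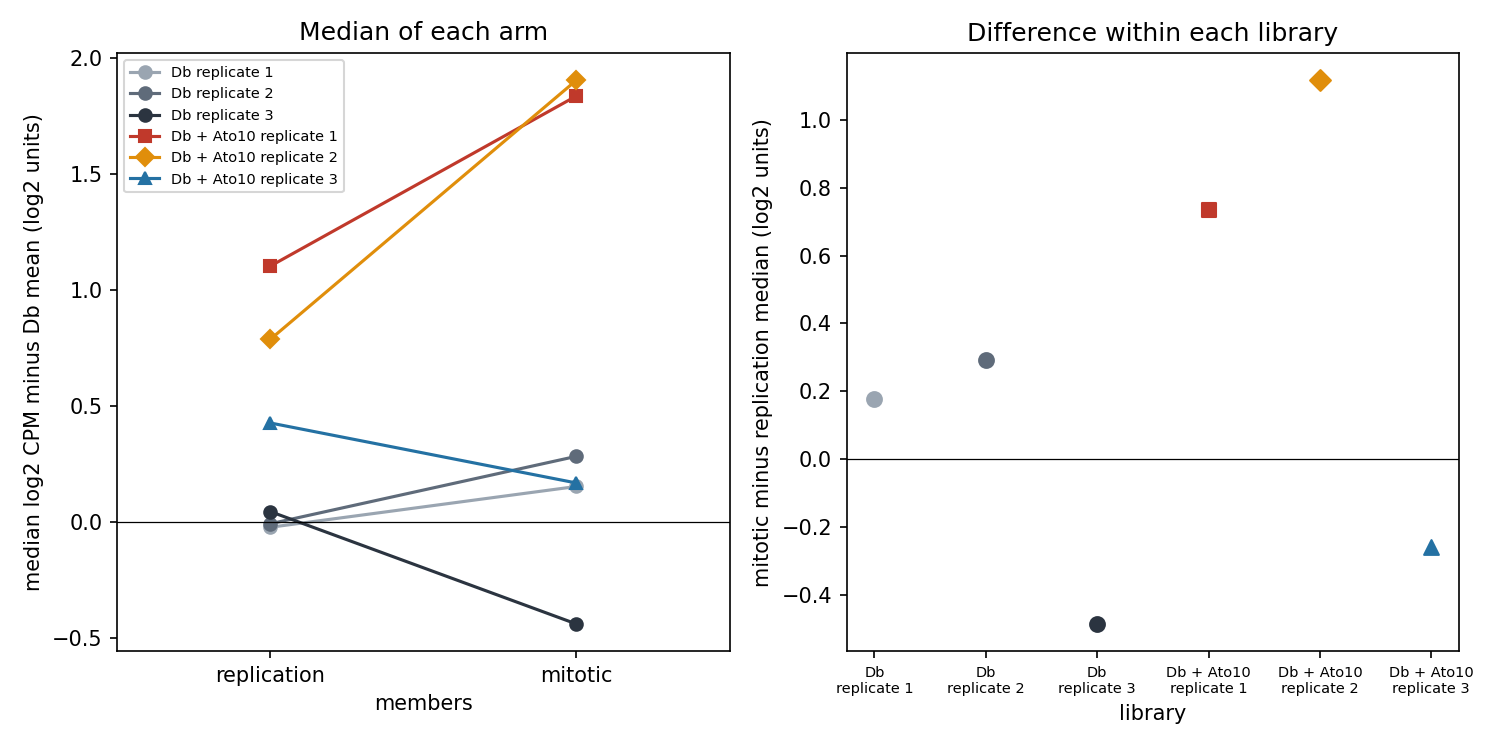
The left panel joins, for each library, the median of log2 CPM minus the Db mean over 14 replication members and over 22 mitotic members, and the right panel shows the mitotic minus the replication median. Db + Ato10 replicates 1 and 2 reached 1.84 and 1.90 for mitotic members, while Db + Ato10 replicate 3 was at 0.43 for replication and 0.17 for mitotic members.

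Genes of the same processes outside the 42 were read from lists of other replication and other mitotic genes. Of 48 other replication genes 46 were tested, and 13 were higher and 0 lower in Db + Ato10 at an unadjusted edgeR p under 0.05 (beside 11.2% and 5.71% of all genes), with 4 called higher by DESeq2 (beside 5.17%). Their median log2 fold change was 0.23, below that of the replication members. Asf1b, a histone chaperone, had 0.795, 0.694 and 0.242 CPM in Db and 5.27, 3.11 and 2.36 CPM in Db + Ato10 (log2 fold change 2.62 ± 0.53, SE). Its counts were low, 10, 8 and 3 in Db and 80, 46 and 30 in Db + Ato10. Lig1, which joins Okazaki fragments, had 4.93, 6.67 and 6.46 CPM in Db and 15.1, 14.7 and 9.37 CPM in Db + Ato10 (1.11 ± 0.27, SE). Db + Ato10 replicate 3 was above every control in 23 of the 46, beside 23.5% of all genes. Of 69 other mitotic genes 51 were tested, with 18 higher and 1 lower at an unadjusted edgeR p under 0.05 (beside 11.2% and 5.71% of all genes) and 5 called higher by DESeq2 (beside 5.17%). Of the 18, Kif2c and Kif15 reached the count filter through the Db + Ato10 libraries alone. The median log2 fold change was 1.01. The leading genes by p were Cks1b, a subunit of cyclin-dependent kinases, with 2.70, 2.43 and 2.10 CPM in Db and 8.17, 8.10 and 4.10 CPM in Db + Ato10, and Ncaph, a condensin subunit, with 1.11, 0.867 and 0.323 and 5.20, 3.24 and 2.21 CPM. Db + Ato10 replicate 3 was above every control in 14 of the 51, near the 23.5% of all genes. The lower gene was Spc25, a kinetochore subunit, with 48.6, 47.2 and 42.2 CPM in Db and 21.7, 33.8 and 32.5 CPM in Db + Ato10. Spc25 and Pttg1 (securin), at 28.8 and 88.7 FPKM, were far more abundant than any of the 23 mitotic members, and Pttg1, named after its values were seen, had a log2 fold change of -0.19 ± 0.15 (SE), or -0.29 with Db replicate 1 omitted and -0.09 with Db replicate 2 omitted.

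Regulators of the E2F and MuvB programmes showed no common direction. Of 18 such genes 17 were tested, and 0 were higher and 3 lower at an unadjusted edgeR p under 0.05 (beside 11.2% and 5.71% of all genes), with 0 called by DESeq2. Tfdp2, a partner of E2F factors, had 78.5, 65.9 and 74.0 CPM in Db and 37.1, 49.5 and 58.8 CPM in Db + Ato10. Rbl2, the p130 pocket protein of resting cells, had 105, 93.3 and 101 CPM in Db and 45.0, 60.8 and 82.3 CPM in Db + Ato10. Both were lower in every treated library than in any control, with log2 fold changes of -0.59 ± 0.19 and -0.67 ± 0.23 (SE). Of 13 G1 and checkpoint kinases, cyclins and their activators, all tested, 5 were higher and 0 lower at that p, beside the same shares of all genes. Cdk6, a partner of cyclin D, had 22.3, 24.1 and 20.6 CPM in Db and 52.8, 52.9 and 28.0 CPM in Db + Ato10, with a log2 fold change of 1.00 ± 0.26 (SE), and DESeq2 called it alone of the 13 with Benjamini-Hochberg adjustment (adjusted p = 0.0267). Cdk2, the partner of cyclins E and A, had 9.70, 9.10 and 9.21 CPM in Db and 15.6, 13.1 and 13.2 CPM in Db + Ato10 (0.58 ± 0.17, SE). Cyclin-dependent kinase inhibitors numbered 8, with 7 tested and 0 past that p in either direction. Cdkn1a, or p21, which holds the cycle and is induced by p53, had 77.6, 52.6 and 17.4 CPM in Db and 457, 83.5 and 63.7 CPM in Db + Ato10 (log2 fold change 2.03 ± 0.90, SE). Db + Ato10 replicate 1 was far above all other libraries, and Db + Ato10 replicate 3 was inside the control range. The fold change rested on Db + Ato10 replicate 1, and leaving it out gave 0.59. Cdkn3, a phosphatase that acts on Cdk1 and Cdk2, had 0.556, 0.954 and 0.323 CPM in Db and 2.24, 3.04 and 0.315 CPM in Db + Ato10. Its Db + Ato10 replicates 1 and 2 lay above every control, and Db + Ato10 replicate 3 did not.

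Markers of other cell types also differed between the treated libraries and are given beside the members. Summed over the 23 mitotic members, CPM was 56.5, 57.0 and 34.8 in Db and 168, 166 and 51.3 in Db + Ato10, or 3.39, 3.35 and 1.04 times the Db mean in Db + Ato10 replicates 1 to 3. Replication members summed to 195, 185 and 192 CPM in Db and 311, 258 and 228 CPM in Db + Ato10, or 1.63, 1.35 and 1.20 times the Db mean. Of 15 leukocyte markers 10 were tested and 8 were higher at an unadjusted edgeR p under 0.05, at which 11.2% of all genes were higher and 5.71% lower. Their sums were 93.0, 146 and 118 CPM in Db and 3749, 784 and 169 CPM in Db + Ato10 (31.4, 6.57 and 1.42 times the Db mean). The most abundant was Lyz2, a macrophage and neutrophil lysozyme. Without Lyz2 the sums were 72.2, 88.5 and 77.1 CPM in Db and 1086, 246 and 104 CPM in Db + Ato10. The B cell marker Ms4a1 was at 0 counts in Db replicates 1 and 2. Squamous and urothelial markers (10 genes, 6 tested, 5 higher, of which Krt5, Krt14 and Krt15 reached the count filter through Db + Ato10 alone) summed to 6.99, 6.33 and 4.77 CPM in Db and 242, 163 and 45.8 CPM in Db + Ato10. The most abundant was Krt20, while Krt14 was at 0 counts in Db replicates 2 and 3, Krt15 in Db replicate 2, and Krt6a in all 3 controls and Db + Ato10 replicate 2.

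The remaining marker lists covered cells of the kidney itself. Injured tubule markers (8 genes, all tested, 8 higher at the same p) summed to 154, 264 and 193 CPM in Db and 6093, 1806 and 671 CPM in Db + Ato10. These treated sums were 29.9, 8.87 and 3.29 times the Db mean, with Lcn2 the most abundant. Without Lcn2 the sums were 151, 221 and 186 CPM in Db and 1005, 938 and 362 CPM in Db + Ato10. Fibroblast markers (9 genes, all tested, 7 higher) summed to 139, 198 and 142 CPM in Db and 1667, 683 and 258 CPM in Db + Ato10, led by Col1a2. Tubule transport markers (9 genes, all tested, 3 lower and 0 higher) summed to 16860, 14710 and 16390 CPM in Db and 6769, 6015 and 13740 CPM in Db + Ato10, led by Umod. Endothelial markers (7 genes, 1 lower) summed to 379, 309.6 and 354 CPM in Db and 407, 162 and 329.7 CPM in Db + Ato10, led by Pecam1, and podocyte markers (5 genes, 0 at that p) to 570.2, 371 and 367 and 573, 197 and 373 CPM, led by Podxl. No endothelial, fibroblast, tubule or podocyte marker was at 0 counts in any library. Markers of injured tubule, leukocytes, squamous epithelium and fibroblasts were higher, and tubule markers lower, in Db + Ato10 replicates 1 and 2, where the mitotic members were highest. In Db + Ato10 replicate 3 the mitotic members summed to 1.04 times the Db mean. There the injured tubule, squamous, fibroblast and leukocyte sums were 3.29, 7.59, 1.62 and 1.42 times the Db mean, and the tubule sum 0.860 times. The part of these cell types in the levels of the 42 members was not tested.

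**Figure D3:**
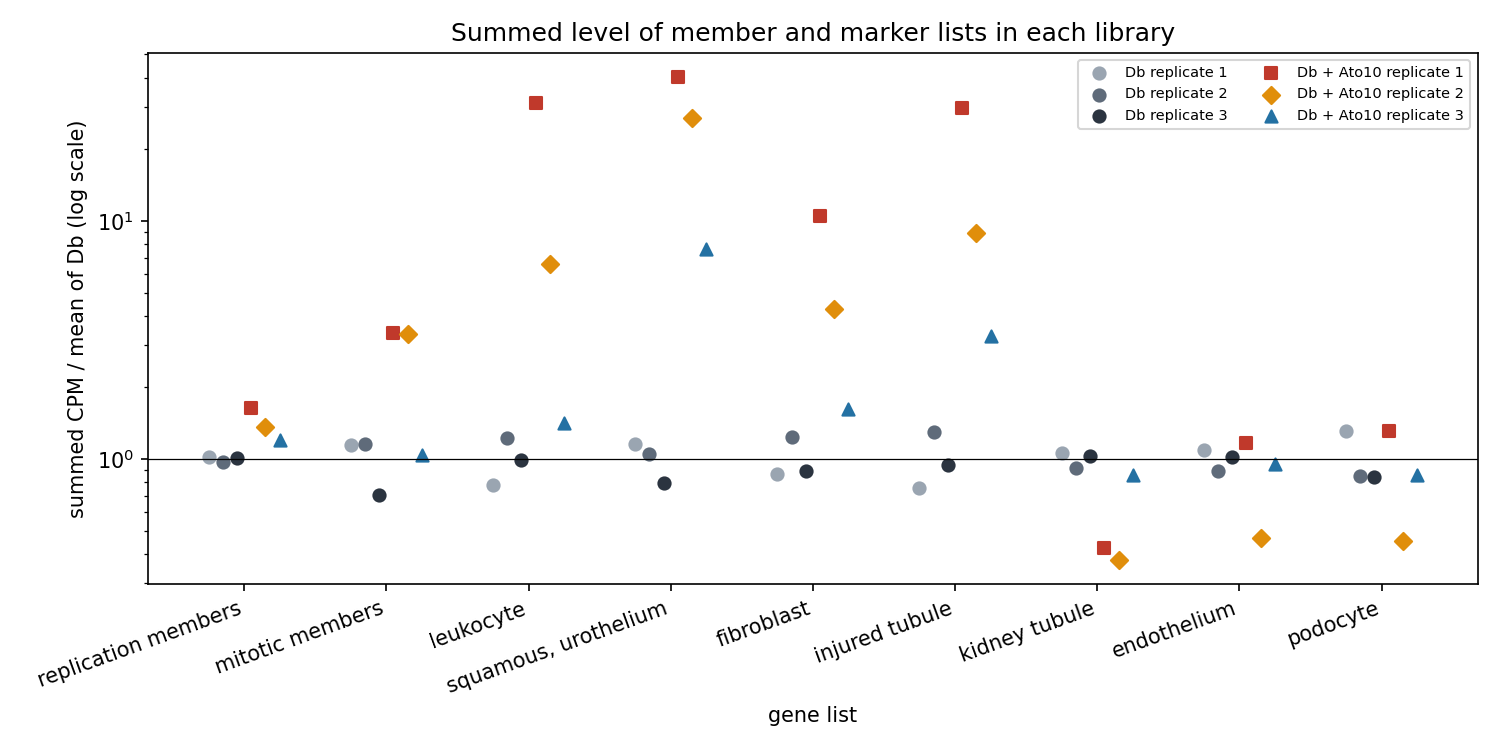
Each point is the summed CPM of a gene list in 1 library divided by the mean of the 3 Db libraries, on a log scale. The mitotic members stood at 3.39, 3.35 and 1.04 times the Db mean in Db + Ato10 replicates 1 to 3. The leukocyte markers, with the abundant Lyz2 included, stood at 31.4, 6.57 and 1.42 times.

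Promoters of the members were also searched for letters known from cell cycle genes. The RefSeq table of build GRCm38.p6 gives 250 bases before and 50 after each transcription start, and 33 of the 42 members matched by NCBI Gene number. Words searched on both strands were TTTCCCGC, TTTGGCGC, TTTCGCGC and TTTGCCGC for E2F sites, TTTGAA and TTCGAA for the cell cycle genes homology region (CHR), and CCAAT for the CCAAT box. Words of a kind can overlap, and TTCGAA reads the same on both strands. An E2F word was held by 7 of 13 replication members (Cdc6, Cdt1, Mcm3, Mcm5, Mcm6, Mcm7 and Uhrf1) and 1 of 18 mitotic members (Cdk1), beside 2.6% of all 27025 genes. A CHR word was held by 3 of 13 replication and 14 of 18 mitotic members, beside 21.7% of all genes, and a CCAAT word by 10 of 13 and 16 of 18, beside 41.1%. Of the 2 G1/S members in the table, E2f1 and Ccne1, 0 held a word of any kind. These are matches of letters only, described without a test, in members chosen for their place in the cell cycle. Any link of these words to the levels in the libraries was not tested.

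To show these words in place, the 150 bases before the start are printed for Mcm6 and Mcm3 among the replication members, and for Birc5 and Top2a among the mitotic ones. They are the 2 described members of each role with the smallest unadjusted p and 1 start in the table. Sequences are from RefSeq, build GRCm38.p6, read 5′ to 3′ along the strand of the gene, with E2F, CHR and CCAAT words in capitals. Mcm6 lies at chr1:128359706-128359855 on the minus strand, Mcm3 at chr1:20820313-20820462 on the minus strand, Birc5 at chr11:117849087-117849236 on the plus strand and Top2a at chr11:99024190-99024339 on the minus strand.
Mcm6 promoter: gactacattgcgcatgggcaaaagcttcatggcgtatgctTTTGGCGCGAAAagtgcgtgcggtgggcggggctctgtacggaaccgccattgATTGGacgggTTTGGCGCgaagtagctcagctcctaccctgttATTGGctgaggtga
Mcm3 promoter: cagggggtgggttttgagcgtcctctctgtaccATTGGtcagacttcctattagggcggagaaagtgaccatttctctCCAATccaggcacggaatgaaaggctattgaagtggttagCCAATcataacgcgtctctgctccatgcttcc
Birc5 promoter: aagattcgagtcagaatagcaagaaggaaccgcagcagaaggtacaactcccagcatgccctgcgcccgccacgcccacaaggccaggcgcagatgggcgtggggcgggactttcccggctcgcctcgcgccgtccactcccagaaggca
Top2a promoter: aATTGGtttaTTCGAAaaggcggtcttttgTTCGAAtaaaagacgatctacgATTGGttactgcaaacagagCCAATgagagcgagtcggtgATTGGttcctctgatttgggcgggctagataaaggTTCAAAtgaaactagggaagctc
In Mcm6 the capitals mark E2F words, a pair of them overlapping, and CCAAT words read on the other strand (ATTGG). The E2F words of Mcm3 lie after the start and are not shown, so its capitals are CCAAT words on either strand. Top2a holds TTCGAA words (CHR), CCAAT words on both strands and, nearest the start, TTTGAA on the other strand (TTCAAA), and Birc5 holds none of these letters in its window.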

How the data were processed

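Each of the 6 kidneys gave 1 library, and groups were taken from the labels. The authors deposited expected counts per gene (estimated reads, not normalized, 91.3% of them whole as deposited) and FPKM, which the deposited table scales to transcript length and library size. The submitters' processing notes list HISAT, Bowtie2 2.2.5 and mm9 without roles. Build GRCm38.p6 served only for the RefSeq promoters, matched by NCBI Gene number. The authors' TPM and average columns and the transcript table were not used. Expected counts were rounded and fitted with edgeR 4.0.16 (R 4.3.3): TMM, a floor of 10 counts in 3 or more libraries, quasi-likelihood F test, Benjamini-Hochberg adjustment over all 13679 genes. Standard errors came from dividing the absolute log2 fold change by the root of F. Log2 CPM used a prior count of 2. Of each role list, the member with the highest mean FPKM, the smallest unadjusted p and the largest fitted fold change were described in all libraries. Of each other pathway list, the 2 genes with the smallest unadjusted p were named, and of each marker list the one with the highest mean CPM. Alternatives were DESeq2 1.42.0, limma 3.58.1 (voom, and log2(FPKM + 1)), upper-quartile scaling, other count filters, the replicate number as a block, the mean in place of the median, Ccna2 and Top2a moved to the replication members, and each library left out. Leaving out Db replicate 1 and Db + Ato10 replicate 3 together was chosen after seeing the data, as were the spread of the MCM subunits and the ranks of libraries within members. The members and lists were chosen with earlier results of these data known. Totals ran from 11381678 to 14667909 counts, and 0 pairs of libraries held identical counts. The fit was also run on simulated data, and no outcome of that run is used or reported here. Plots used Python 3.11.15 and matplotlib 3.10.9.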

Additional observations from a re-analysis of the deposited data

How the results depend on the processing

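Median log2 fold changes of all tested members, of the replication members and of the mitotic members kept their sign under every alternative run. The count of genes called by edgeR was 0, with 2314 at an unadjusted p under 0.05. It was 884 with DESeq2, and from 0 to 1106 with 1 library left out, the highest without Db + Ato10 replicate 3. Members called were 0, with 24 of 40 at an unadjusted edgeR p under 0.05 (beside 11.2% of all genes). The latter ran from 9 of 40 without Db replicate 3 (beside 5.23%) to 33 of 39 without Db + Ato10 replicate 3 (beside 16.8%). Members called were 10 with DESeq2 (beside 5.17%), and from 0 to 17 with 1 library left out (beside 5.96% at 17). Other alternatives called 0. Separated members numbered 15 (beside 12.0% of all genes), and from 14 to 34 with 1 library left out. The count was 14 when Db + Ato10 replicate 2 was omitted (beside 14.7%). It was 34 when Db + Ato10 replicate 3 was (beside 25.4%), so the share of all genes rose as well. Separated members numbered 35 (beside 29.0% of all genes) without Db replicate 1 and Db + Ato10 replicate 3 together, an alternative chosen after seeing the data. The difference between the fitted medians of mitotic and replication members, 0.86, was 0.11 with limma on log2(FPKM + 1), a scale that understates changes of low genes. The group difference of within-library values, 0.54, was 0.185 with limma on log2(FPKM + 1) and ran from 0.24 to 0.93 with 1 library left out. The design defines these within-library values. The fitted version had been computed first and was kept beside them after its value was seen. The 17 members picked by level, p or fold change were compared with the alternatives in 231 comparisons. Of these, 214 kept side and sign and 16 came past the threshold. Tyms changed sign, from -0.257 without Db + Ato10 replicate 1 to 0.043 without Db + Ato10 replicate 2. Outside the 17, Rrm1 (-0.079 without Db + Ato10 replicate 1) and Ccne2 (0.310 without Db replicate 1) also changed sign. For all of these the cause was not tested.

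No pairing of the libraries by replicate number was evident, since deviations of same-numbered libraries correlated at -0.151, 0.0613 and 0.208. With so few libraries these values cannot exclude it. With the replicate block edgeR called 0 genes (1856 at an unadjusted p under 0.05) and 0 members. Its medians were 0.94 for all tested members, 0.75 for replication, 1.46 for mitotic members and 0.71 for their difference. By a paired definition added later, 31 members were higher in the treated library of each same-numbered pair, beside 23.3% of all genes. Low counts limit the mitotic members, 12 of 23 of which had fewer than 30 counts in each Db library.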

Other observations

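Genes of the p53 response, which halts the cycle after damage, were read beside the proliferation genes. All 18 of the list were tested, and at an unadjusted p under 0.05 edgeR counted 8 as higher and 0 as lower in Db + Ato10, beside 11.2% and 5.71% of all genes. Past the adjusted threshold edgeR called 0 of 18, and DESeq2 called 4 higher, beside 5.17% of all genes. Trp53, which encodes p53 itself, had 26.5, 25.6 and 27.0 CPM in Db replicates 1 to 3 and 49.3, 47.9 and 37.9 CPM in Db + Ato10 replicates 1 to 3. Its log2 fold change was 0.77 ± 0.15 (SE, adjusted p = 0.239, edgeR quasi-likelihood, Benjamini-Hochberg), with small spread among the controls. Bbc3, the pro-apoptotic protein Puma, had 1.59, 2.43 and 1.70 CPM in Db and 8.96, 6.82 and 3.78 CPM in Db + Ato10, a log2 fold change of 1.77 ± 0.40 (SE, adjusted p = 0.239, edgeR quasi-likelihood, Benjamini-Hochberg). In both genes every treated library lay above every control, Db + Ato10 replicate 3 included, as in 9 of the 18 genes of the list and 12.0% of all genes. The median over the list of log2 CPM minus the Db mean was 1.66, 0.54 and 0.40 in Db + Ato10 replicates 1 to 3. Any link between the p53 list and the proliferation genes was not tested.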
